A study of Mus musculus with 8 samples.

Results

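The genes described here are 9 genes of the T helper 1 (Th1) program: the receptor chains Il12rb1, Il12rb2, Il18r1 and Il18rap, the signal transducer Stat4, the transcription factors Tbx21, Eomes and Runx3, and the cytokine Ifng. They were chosen by symbol out of 24421 in the count table, with the earlier contrast of the 2 genotypes on these same libraries in view, so the values that separate the genotypes are given as a description and support nothing. CD4+ T cells were sorted from enzyme-treated knee joints; the mice were male, 16 weeks old and had antigen induced arthritis, in which a joint of an immunised animal is challenged with the antigen. Both groups share this disease, sex and age: 4 libraries are wild type and 4 are Slc7a5 knockout. The promoter or cell type in which Slc7a5 was removed, the strain and the number of cells per library are not given in the sources used here, and they do not tie libraries to animals, so p-values measure the spread between libraries, which may be technical.

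Th1 cells are helper T cells that make interferon gamma, which activates macrophages and is prominent in inflamed joints. Interleukin 12 binds a receptor of the chains Il12rb1 and Il12rb2 and activates Stat4. Stat4 and the T-box factor T-bet, encoded by Tbx21, then act with Runx3 on the interferon gamma gene, and T-bet in turn raises Il12rb2 and the interleukin 18 receptor, through which interleukin 18 adds to interferon gamma output. Eomes is the T-box relative of T-bet that is best known from CD8 T cells and natural killer cells. Slc7a5 encodes the light chain of the amino acid transporter LAT1, which supplies activated T cells with large neutral amino acids.

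The libraries held 18837650 to 36436923 counts, given here as CPM, counts scaled to an effective library size of 1000000. Genes with at least 1 count numbered 9461 ± 1012 in wild type and 7726 ± 1805 in knockout (SD, n = 4 each, two-sided exact permutation p = 0.143), with the fewest in knockout replicate 4 (5221), knockout replicate 2 (7684) and wild-type replicate 4 (7957). For Slc7a5 itself, wild-type replicates 1 to 4 held 385, 194, 410 and 0 reads, and each knockout library held 0. The count of 0 in wild-type replicate 4 goes against its label, so that name stands below for the library labelled wild-type replicate 4, and every direction drawn from it rests on the label. Slc7a5 was at only 7.01 to 12.6 CPM in wild-type replicates 1 to 3 and did not pass the filter on low counts described below. Of the genes that passed it, 15.3% were at 0 in wild-type replicate 4, against 2.86% to 3.45% in replicates 1 to 3. The cause of the 0 for Slc7a5 was not tested. The deleted part of the gene is not given in the sources used here. Cd3e, a chain of the T cell receptor complex, was at 407 to 554 CPM in wild type and at 330 to 382 CPM in knockout. Cd4, the marker of the sort, was at 373 to 570 CPM in wild type and 344 to 427 CPM in knockout replicates 1 to 3, but at 1.78 CPM (34 counts) in knockout replicate 4.

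The stretches before the start sites of 4 of these genes are shown because their transcripts behaved differently in the knockout libraries: Ifng, Il12rb2 and Tbx21 were at or near 0 counts in 2 or 3 of them, whereas Il18rap was counted in all 8 libraries. Each is the 250 bases upstream of the RefSeq start site (GRCm38.p6, the coordinates of mm10), 5′ to 3′ on the gene's strand. Ifng is chr10:118440796-118441045, plus strand; Il12rb2 is chr6:67376189-67376438, minus strand. Tbx21 is chr11:97115332-97115581, minus strand; Il18rap is chr1:40515112-40515361, plus strand. Capitals mark matches, on either strand, to a STAT element (TTCNNNGAA), a T-box core (GTGTGA) or a RUNX core (TGTGGT).
Ifng: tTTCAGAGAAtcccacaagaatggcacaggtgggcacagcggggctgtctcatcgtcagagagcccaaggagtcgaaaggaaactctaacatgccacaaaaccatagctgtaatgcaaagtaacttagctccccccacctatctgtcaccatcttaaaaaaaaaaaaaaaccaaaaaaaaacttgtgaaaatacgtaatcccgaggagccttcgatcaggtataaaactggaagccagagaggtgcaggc
Il12rb2: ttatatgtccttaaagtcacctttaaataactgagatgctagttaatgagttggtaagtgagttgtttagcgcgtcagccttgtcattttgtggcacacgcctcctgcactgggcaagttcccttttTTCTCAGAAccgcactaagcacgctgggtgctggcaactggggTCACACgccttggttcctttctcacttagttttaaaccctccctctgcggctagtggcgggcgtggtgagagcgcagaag
Tbx21: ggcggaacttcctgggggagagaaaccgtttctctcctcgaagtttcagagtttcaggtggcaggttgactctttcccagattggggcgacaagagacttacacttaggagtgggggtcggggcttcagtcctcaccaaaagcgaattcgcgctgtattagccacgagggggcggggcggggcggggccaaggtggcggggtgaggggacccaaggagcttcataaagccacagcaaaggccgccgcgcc
Il18rap: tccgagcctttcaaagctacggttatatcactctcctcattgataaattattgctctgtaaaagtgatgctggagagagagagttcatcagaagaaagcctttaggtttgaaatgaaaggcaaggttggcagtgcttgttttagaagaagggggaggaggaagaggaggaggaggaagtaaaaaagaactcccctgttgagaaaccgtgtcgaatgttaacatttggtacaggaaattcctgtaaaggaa

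The Ifng window held 1 STAT match, 249 to 241 bases before the start. The Il12rb2 window held 1 STAT match, 123 to 115 bases before the start, and 1 T-box match, 80 to 75 bases before it. The windows of Tbx21 and Il18rap held none. RefSeq windows were found for 8 of the 9 genes, and among the others the first of 2 start sites of Runx3 held 2 RUNX matches and the third of 3 start sites of Il18r1 held 2 STAT matches. Of 32536 distinct windows of this length in the mouse, 7.04% held the STAT element, 12.1% the T-box core and 13.96% the RUNX core. These matches are letters in a window and not sites of binding.

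Interferon gamma transcripts were lower in all 4 knockout libraries than in any wild-type library. Ifng, on chromosome 10 from 118441046 to 118445894 (GRCm38, as are all positions here), was at 171, 223, 144 and 104 CPM in wild-type replicates 1 to 4. It was at 21.2 CPM in knockout replicate 1, 77.4 CPM in replicate 3 and 0 counts in replicates 2 and 4. A count of 0 allows up to 0.167 CPM in knockout replicate 2 and 0.157 CPM in replicate 4, by a floor of 3 counts that covers counting error only. The means were 161 ± 49.9 and 24.7 ± 36.6 CPM (log2 fold change of knockout minus wild type −2.70, SE 1.82, n = 4 each). In bulk libraries, fewer cells making a transcript and less of it per cell cannot be told apart. Ifng was the 1 gene of the 9 whose genotypes did not overlap, and the knockout libraries were all under the wild-type ones for 4.62% of all 8489 genes tested. The GENCODE annotation places 336 exonic bases of a predicted gene over it on the same strand, where counting may split or drop reads.

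Setting Ifng against a gene in the same library removes the scaling between libraries, a comparison chosen after the values were seen. Reads of Ifng per read of Il18rap, its most evenly counted partner here, were 0.433, 0.955, 0.720 and 0.406 in wild-type replicates 1 to 4. In the knockout libraries they were 0.0790, 0, 0.341 and 0. All 4 knockout ratios lay below all wild-type ratios, as the levels did. With 0 counts of Ifng in knockout replicates 2 and 4, the ratios there could only be 0. Since Il18rap was picked for its even counts, the order of the ratios is no separate support.

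T-bet transcripts varied widely inside wild type, and knockout replicate 1 was the exception in knockout. Tbx21, on chromosome 11 from 97098007 to 97115331, was at 31.4, 94.9, 127 and 15.9 CPM in wild-type replicates 1 to 4. It was at 27.0 CPM in knockout replicate 1 (642 counts), which lies inside the wild-type range. In knockout replicate 2 it had 2 counts (0.111 CPM, 95% Poisson interval 0.0135 to 0.401, counting error only), and in replicates 3 and 4 it had 0. The means were 67.4 ± 52.6 and 6.79 ± 13.5 CPM (log2 fold change −3.31, SE 2.30, n = 4 each). With knockout replicate 1 left out the fitted value was −10.71, which rests on 2 knockout counts and is no bound.

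T-bet and interferon gamma transcripts went together in some libraries and not in others. Both were at or near 0 in knockout replicates 2 and 4, and both had their lowest wild-type level in replicate 4. In knockout replicate 3 Ifng had 1944 counts while Tbx21 had 0. In knockout replicate 1 Tbx21 was inside the wild-type range while Ifng was below it, and Ifng had 0.783 reads per read of Tbx21. In wild-type replicates 1 to 4 that ratio was 5.45, 2.35, 1.13 and 6.56.

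Runx3, a Runt factor that binds the interferon gamma locus with T-bet, overlapped between the genotypes. It lies on chromosome 4 from 135120645 to 135177990 and was at 58.2, 44.0, 32.6 and 21.5 CPM in wild-type replicates 1 to 4. In knockout replicates 1 to 4 it was at 63.4, 18.2, 37.4 and 0.209 CPM. The highest and the lowest of the 8 libraries were thus both knockout, and replicate 4 held only 4 counts (95% Poisson interval 0.0569 to 0.535 CPM). The log2 fold change was −0.39 (SE 1.5, n = 4 each), and 0.0050 without knockout replicate 4.

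Eomes, on chromosome 9 from 118478186 to 118486132, had 0 counts in every library. Over the 205851022 counts of all 8 libraries this allows up to 0.0146 CPM, by counting error only. In single libraries the floor was 0.0834 to 0.167 CPM. No genotype difference can be given for it. Among markers of CD8 T and natural killer cells, Ncr1, Klra4 and Klra8 were likewise at 0 in all 8 libraries. The 11 markers of that list summed to 29.98 to 99.1 CPM in the wild-type libraries and 93.0 to 436 CPM in the knockout ones. In knockout replicate 4, where Cd4 was at 1.78 CPM, Cd8b1 was at 123 CPM, Klrd1 at 141 CPM and Tyrobp at 70.8 CPM. Each was at its highest of the 8 libraries there. Gzma had 1939 counts there and 2371 in knockout replicate 2. Cd8a, Klrb1c, Prf1 and Klre1 had 0 counts in knockout replicate 4. The part of these markers in the zeros of that library was not tested.

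**Figure D1:**
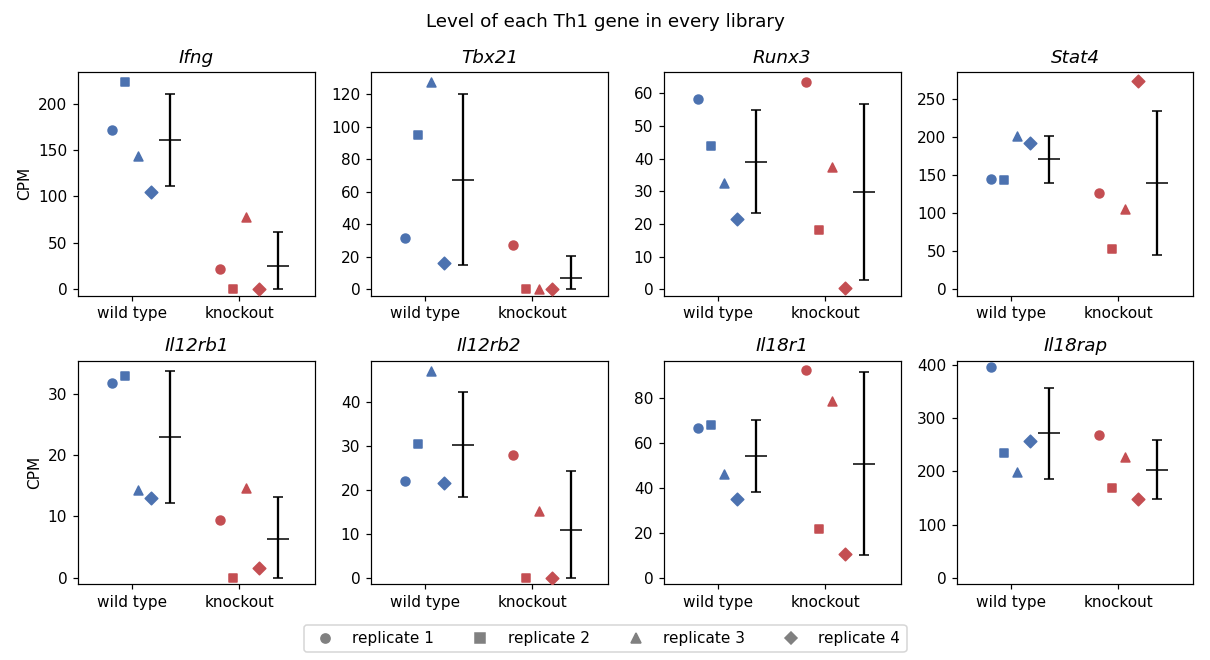
CPM (vertical axes, linear, different for each gene) of the 8 genes with counts in 4 wild-type (blue) and 4 knockout (red) libraries; marker shapes are replicate numbers, and black bars are the mean ± SD, drawn no lower than 0. Ifng separates the genotypes, at 104 to 223 CPM in wild type and 0 to 77.4 CPM in knockout, whereas the other 7 genes overlap.

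Stat4, the transducer of the interleukin 12 signal, was counted in all 8 libraries and stood out in 1 of them. It lies on chromosome 1 from 51987106 to 52107189 and was at 145, 144, 202 and 193 CPM in wild-type replicates 1 to 4. Knockout replicates 1 to 3 were lower, at 127, 53.0 and 105 CPM, while knockout replicate 4 had the highest value of all libraries, 275 CPM. That library had 4 counts of Runx3 and 0 of Tbx21, Ifng and Il12rb2. The means were 171 ± 30.9 and 139.9 ± 95.01 CPM (log2 fold change −0.29, SE 0.50, n = 4 each). Without knockout replicate 4 the log2 fold change was −0.86, and without knockout replicate 2 it was −0.042. The annotation places 1033 exonic bases of a predicted gene on the same strand as Stat4.

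The receptor chain Il12rb2, which makes the interleukin 12 receptor able to signal and marks cells committed to the Th1 fate, was at 0 in the same 2 knockout libraries as Ifng. It lies on chromosome 6 from 67285986 to 67376293. It was at 21.9, 30.5, 47.1 and 21.6 CPM in wild-type replicates 1 to 4, at 28.1 and 15.2 CPM in knockout replicates 1 and 3, and at 0 in knockout replicates 2 and 4. Knockout replicate 1 lay inside the wild-type range. The log2 fold change was −1.48 (SE 2.18, n = 4 each), and −2.58 with knockout replicate 1 left out. On the other strand, 1519 exonic bases of Serbp1 overlap it, and without a stated strand setting reads of the 2 genes cannot be told apart there.

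Il12rb1, the chain that binds interleukin 12 and is shared with the interleukin 23 receptor, was lowest in the same 2 knockout libraries. It lies on chromosome 8 from 70808360 to 70823542 and was at 31.7, 32.8, 14.4 and 13.0 CPM in wild-type replicates 1 to 4. Knockout replicate 3 was inside that range at 14.6 CPM, and knockout replicate 1 was just below it at 9.39 CPM. Knockout replicate 2 had 1 count (0.0556 CPM) and replicate 4 had 31 counts (1.62 CPM). The log2 fold change was −1.84 (SE 1.90, n = 4 each).

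The interleukin 18 receptor chains, neighbours on chromosome 1, were counted in every library. Il18r1, the binding chain (from 40465552 to 40500854), was at 67.0, 68.1, 46.3 and 35.3 CPM in wild-type replicates 1 to 4. In knockout replicates 1 to 4 it was at 92.7, 21.9, 78.7 and 10.6 CPM, so 2 of them exceeded every wild-type value and 2 were under every one. Its log2 fold change was −0.088 (SE 1.09, n = 4 each). Its sign turned when knockout replicate 4 (0.23), knockout replicate 2 (0.14), wild-type replicate 1 (0.027) or wild-type replicate 2 (0.017) was left out.

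Il18rap, the accessory chain needed for the signal (from 40515362 to 40551707), was the receptor gene with the most reads. It was at 395, 234, 200 and 257 CPM in wild-type replicates 1 to 4. Knockout replicates 1 to 4 had 268, 169, 227 and 147 CPM. Knockout replicates 2 and 4 were below all wild-type libraries and the other 2 were inside their range. The means were 271 ± 85.9 and 203 ± 54.9 CPM (log2 fold change −0.42, SE 0.34, n = 4 each), and the difference was −0.18 without wild-type replicate 1. Il18rap had 3.43 to 7.27 reads per read of Il18r1 in wild type, 2.88 to 2.90 in knockout replicates 1 and 3, and 7.74 and 14 in knockout replicates 2 and 4.

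All 8 genes with counts passed the filter on low counts and all had lower estimates in knockout, with a median log2 fold change of −0.95. Lower estimates were also the majority among all 8489 genes tested, at 55%, with a median of −0.12. None of the 8 passed at an adjusted p under 0.05 by the quasi-likelihood test of edgeR (Benjamini-Hochberg over all genes, adjusted p = 0.9999 for each, smallest unadjusted p = 0.168). In that test 0% of all genes passed, 326 had an unadjusted p under 0.05 (159 higher, 167 lower), and DESeq2 called 387 genes (61 higher, 326 lower), none of them among these 8. Since the SE was over 1 on the log2 scale for 6 of the 8, a lack of a call does not show equal levels. The 5 libraries with 8000 or more genes detected were wild-type replicates 1 to 3 and knockout replicates 1 and 3. In them 6 of the 8 had lower estimates, and those of Runx3 (0.17) and Il18r1 (0.50) were higher in knockout. There Ifng was at −1.86 (SE 0.59), Tbx21 at −2.64, Il12rb1 at −1.13, Il12rb2 at −0.61, Stat4 at −0.49 and Il18rap at −0.16 on the log2 scale. The knockout reads of Tbx21 there were all from replicate 1, as replicate 3 had 0, and so few knockout libraries leave each of these values uncertain.

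Results were also read without the library labelled wild-type replicate 4, which lacked Slc7a5 reads, and without knockout replicate 4, which nearly lacked Cd4. Without the former all 8 estimates were lower in knockout, at −2.86 for Ifng, −3.64 for Tbx21, −2.03 for Il12rb1 and −1.62 for Il12rb2. Without the latter 6 of 8 were lower, at −2.30 for Ifng, −2.92 for Tbx21, −1.53 for Il12rb1 and −1.09 for Il12rb2. None passed the edgeR test in either. The share of all tested genes with lower estimates is not given here for these removals or for the 5 libraries above. The counts of lower estimates there cannot be set against it.

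**Figure D2:**
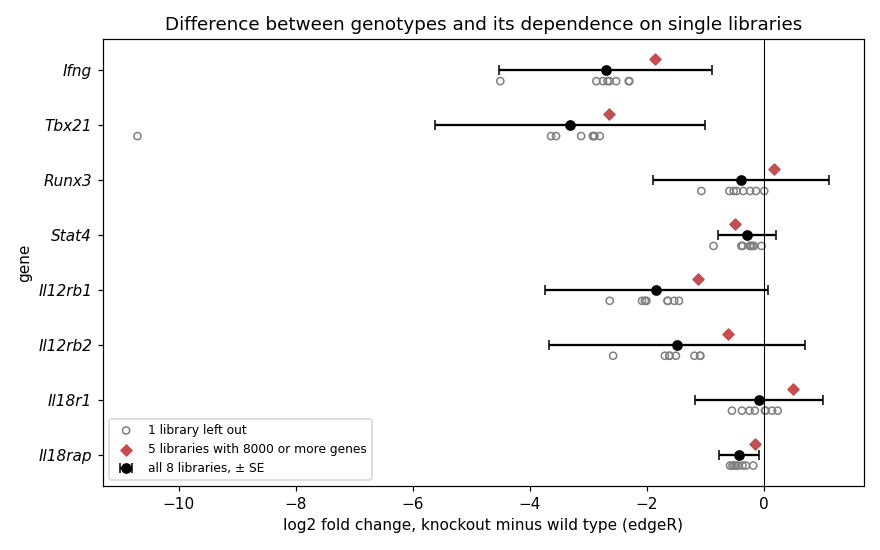
Log2 fold change of knockout minus wild type from edgeR (horizontal axis) for the 8 genes with counts: black points with bars are all 8 libraries ± SE, open circles leave out 1 library each, and red diamonds use the 5 libraries with 8000 or more genes. All black points lie left of 0, Runx3 and Il18r1 cross 0 when libraries are left out, and Tbx21 reaches −10.71 without knockout replicate 1.

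The zeros clustered in 2 libraries. Knockout replicate 1 had counts for all 8 genes and replicate 3 for 7, whereas replicate 2 had at least 10 counts for 4 (Runx3, Stat4, Il18r1 and Il18rap) and replicate 4 for 4 (Stat4, Il12rb1, Il18r1 and Il18rap). All 4 wild-type libraries had at least 295 counts of each of the 8. Ifng and Il12rb2 were counted in all wild-type libraries and at 0 in knockout replicates 2 and 4, as were 7.28% of all tested genes. Counts in every wild-type library with 0 in at least 1 knockout library were found for 3 of the 8, Tbx21 included, and for 34.8% of tested genes. Counts in all 8 libraries were found for 5 of the 8 and for 44.6% of tested genes. In knockout replicate 4 43.7% of tested genes were at 0 and in knockout replicate 2 19.3%, against 2.86% to 15.3% in the wild-type libraries. The number of genes detected thus moves with these zeros, and its part in them was not tested. GC content of the transcript put Tbx21 (59.3%), Il12rb1 (58.4%) and Runx3 (55.9%) at percentiles 97.4, 96.0 and 87.6 of abundant genes, and Ifng (43.5%) at percentile 20.6. An offset for GC content moved the log2 fold change of Ifng from −2.70 to −2.97 and that of Runx3 from −0.39 to −0.027.

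**Figure D3:**
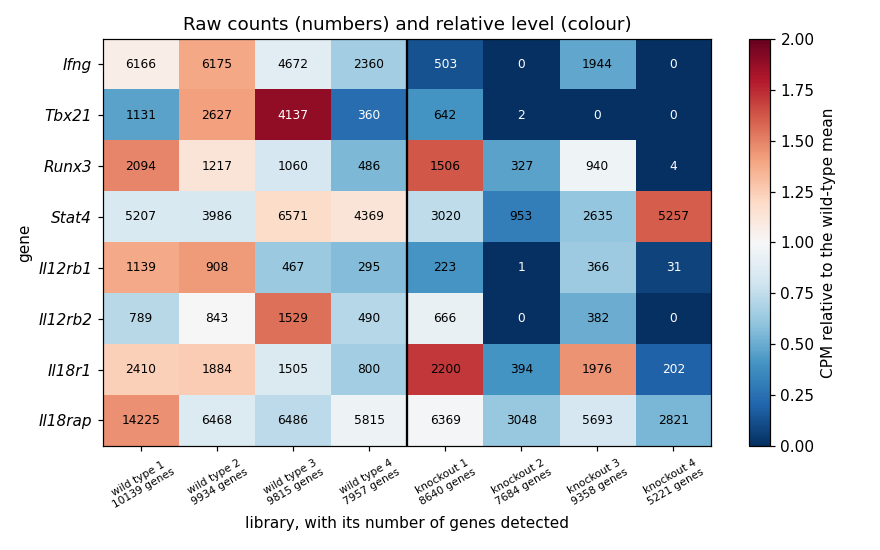
Raw counts (numbers in the cells) of the 8 genes in each library (columns, with the genes detected under each) and CPM relative to the wild-type mean (colour, from 0 in dark blue through 1 in white to 2 in dark red). The cells at or near 0 lie in knockout replicates 2 and 4, and for Tbx21 also in replicate 3, while Stat4 in replicate 4 is above its wild-type mean.

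Leaving out some of the single libraries moved the count of genes without overlap between genotypes from 1 to 2 or 3. It was 3 without knockout replicate 1, 2 without knockout replicate 3, 2 without knockout replicate 4 and 2 without wild-type replicate 4. Fewer libraries make such a separation easier. The share of all tested genes without overlap was not computed for these removals, so the counts cannot be set against it. The fold change of Ifng was −4.50 without knockout replicate 3 and between −2.86 and −2.30 with any other single library left out. The 9 genes together summed to 661 to 922 CPM in wild type and 263 to 637 CPM in knockout, the highest knockout sum being that of replicate 1.

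Per kilobase of exon, which allows genes to be compared, Ifng was the most abundant of these transcripts in wild type, at 133 ± 41.3 CPM per kilobase (n = 4). All its libraries (86.2 to 185) lay above those of the next gene, Il18rap (40.8 to 80.9). Il18rap at 55.5 ± 17.6 and Stat4 at 54.3 ± 9.83 did not differ beyond their spread. Tbx21, at 27.1 ± 21.1 CPM per kilobase, spanned 6.39 to 51.2 and so overlapped both Stat4 above and Il18r1 below. Il18r1 (11.2 ± 3.33), Runx3 (9.35 ± 3.77), Il12rb1 (7.99 ± 3.73) and Il12rb2 (7.98 ± 3.14) followed with overlapping values. In knockout the mean levels per kilobase put Stat4 (44.4 ± 30.2) and Il18rap (41.5 ± 11.2) above Ifng (20.4 ± 30.3), with overlap between all 3.

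**Figure D4:**
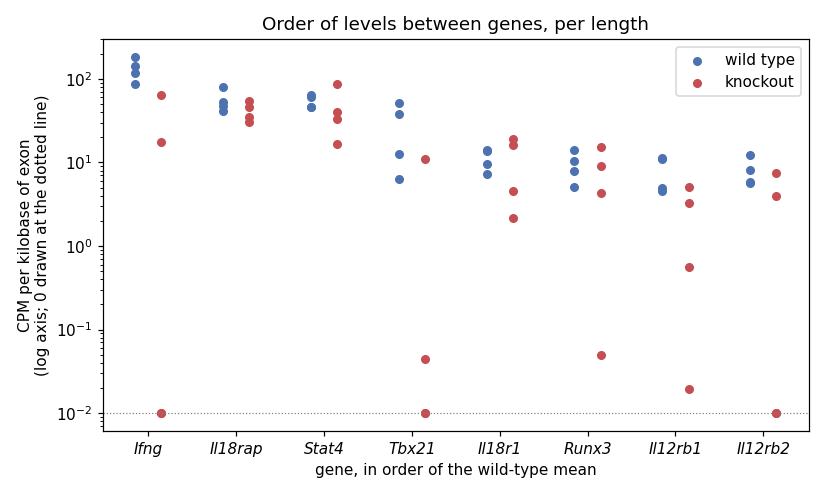
CPM per kilobase of exon (vertical log axis; values of 0 are drawn on the dotted line, where 2 libraries can coincide) for the 8 genes in order of their wild-type mean, with 4 wild-type (blue) and 4 knockout (red) libraries each. Wild-type Ifng, at 86.2 to 185, lies above all other wild-type values, and the knockout values spread furthest for Ifng, Tbx21, Il12rb2, Il12rb1 and Runx3.

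The genes most alike to Ifng over the 8 libraries, by Pearson correlation of log2 CPM among tested genes, were Acaa2 (r = 0.997), Fdx1 (0.996) and S100a4 (0.995). Acaa2 is a mitochondrial thiolase, Fdx1 a mitochondrial ferredoxin and S100a4 a calcium-binding protein of effector T cells. Those most alike to Tbx21 were Uck2 (0.989), Gga1 (0.980) and Cars2 (0.979), and those most alike to Runx3 were Slc50a1 (0.996), Slc28a2 (0.995) and Arhgap9 (0.993). Acaa2 and Fdx1, like Ifng, had counts in 6 of the 8 libraries. The correlations are descriptions over 8 libraries that share the zeros above, picked as the highest of all tested genes.

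Other genes of the pathway were read from 8 lists, and none of their members passed the edgeR test. Of 18 genes of Th1 cells that T-bet binds or raises, all tested, 15 had lower and 3 higher estimates, with a median of −1.14. The list summed to 3967 to 5430 CPM in wild type and 2205 to 3070 CPM in knockout. Its most abundant members were Cxcr6, the receptor for Cxcl16 that retains T cells in tissues (1637 ± 468 and 828 ± 254 CPM, log2 fold change −0.98, SE 0.29), and Nkg7, a cytotoxic granule protein (1038 ± 276 and 347 ± 157 CPM, −1.58, SE 0.32). For 8 of the 18, against the 4.62% of all tested genes, the knockout values were all under the wild-type values. These were Cxcr6, Nkg7, Fasl, Gzmk, Ctsw and the chemokines Ccl3, Ccl4 and Ccl5, of which all but Cxcr6 and Nkg7 are named here for that reason. Gzmk had 0 counts in all 4 knockout libraries, so it passed the filter through its wild-type counts alone and could not overlap. Ctsw had 0 counts in 3 knockout libraries and Ccl3 in 2. Klrg1, a receptor of late effector cells, had the reverse order, at 117 ± 50.8 and 238 ± 73.3 CPM and each of its 4 knockout values exceeded all wild-type values, as for 129 of the 8489 genes tested. This list holds genes already seen to be lower in these libraries, so its direction is no independent evidence.

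Genes downstream of interferon gamma had estimates in both directions. Of 19 tested genes that respond to interferon gamma, 12 had lower and 7 higher estimates, with a median of −0.23. They summed to 6712 to 10235 CPM in wild type and 6080 to 8672 CPM in knockout. B2m, the light chain of MHC class I, was at 3901 ± 1166 and 3316 ± 459 CPM, and Psmb8, an immunoproteasome subunit, at 1042 ± 99.7 and 839 ± 31.4 CPM. For 2 of the 19, Psmb8 and Psmb10, all knockout values were under the wild-type values, against 4.62% of all tested genes. For 0 of the 19 were they all above. The receptor and its signalling genes had 4 lower and 3 higher estimates of 7 tested (median −0.26). There Ifngr1, the binding chain, was at 1652 ± 252 and 1265 ± 241 CPM. Whether these lists differ from Ifng itself was not tested.

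Transcripts of genes listed upstream were mostly scarce in these sorted cells or had estimates in both directions. Of 8 genes listed as upstream cytokines, Il12a, Il27 and Il23a were at 0 in all libraries and 2 were tested. Il12b, which did not pass the filter, had 1714 counts (72.2 CPM) in knockout replicate 1 and 543 (16.7 CPM) in wild-type replicate 3. It was at 0 in every other library. Il18 and Il15 had counts in 1 wild-type library each and in no knockout library. Cytokine made by other cells of the joint was not measured in these libraries. Ebi3, a subunit of interleukins 27 and 35, was at 43.6 ± 15.6 and 15.3 ± 19.8 CPM, and Il21, a helper T cell cytokine, at 31.3 ± 8.50 and 40.1 ± 41.1 CPM. Partners and kinases of interleukin 12 signalling had 5 lower and 3 higher estimates of 8 tested (median −0.50). The kinase Jak1 was at 477 ± 63.9 and 498 ± 209 CPM and Stat3 at 604 ± 154 and 494 ± 109 CPM. Jak2, a kinase of the interleukin 12 receptor named after its values were seen, had means of 86.0 ± 18.1 and 209 ± 68.5 CPM (log2 fold change 1.28, SE 0.42), and its 4 knockout values exceeded all wild-type values. Signalling genes of the interleukin 18 and 1 receptors had 8 lower and 4 higher estimates of 12 tested (median −0.59). Of these, Il1r2, a decoy receptor, was at 577 ± 276 and 402 ± 179 CPM and Gadd45b, a stress-induced activator of p38 signalling, at 177 ± 70.6 and 81.2 ± 39.9 CPM.

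Transcription factors that act with T-bet went both ways, with 9 lower and 7 higher estimates of 16 tested (median −0.090). Ets1, a partner of T-bet in Th1 cells, averaged 3531 ± 753 CPM in wild type, against 5215 ± 1455 CPM in knockout (log2 fold change 0.56, SE 0.22). Bhlhe40, a factor of cytokine-producing helper T cells, was at 2011 ± 514 and 1242 ± 281 CPM (−0.69, SE 0.24), and all 4 of its knockout libraries lay below all wild-type libraries. Other effector cytokines had 6 lower and 4 higher estimates of 10 tested (median −0.74). Ltb, lymphotoxin beta, was at 2145 ± 164 and 1150 ± 33.8 CPM (−0.90, SE 0.16), with limma voom calling it (adjusted p = 0.0103) and the GC offset putting it at −0.023. The Th17 cytokine Il17f had means of 1215 ± 1186 and 1463 ± 829 CPM.

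**Figure D5:**
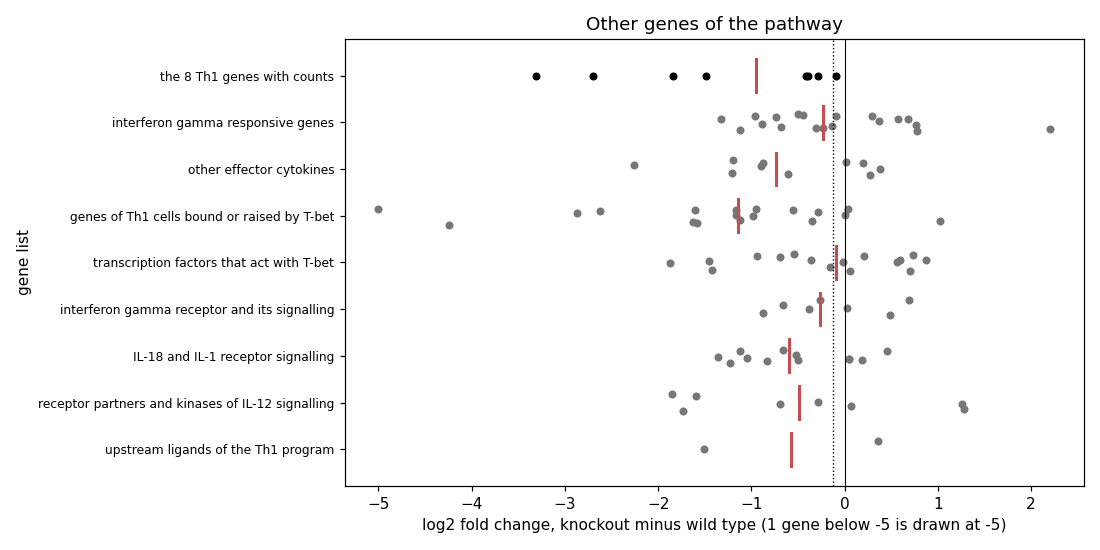
Log2 fold change of knockout minus wild type (horizontal axis) for the tested members of 8 gene lists (grey points, spread vertically for legibility) and the 8 Th1 genes with counts (black); red bars are list medians and the dotted line is the median of all tested genes, −0.12. The lists of T-bet genes (median −1.14) and of the Th1 genes (−0.95) lie furthest left, and the lists of interferon gamma responsive genes and of transcription factors lie near 0.

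Markers of other cells in the sort were read beside these results. Myeloid and antigen-presenting markers (16 genes, Adgre1 and Fcgr1 at 0 in all libraries) summed to 1251 to 3039 CPM across the wild-type libraries. Across the knockout ones the sum was 1953 to 10892 CPM, most of it Cd74 and MHC class II chains. The other tested markers of this list went both ways, with no estimate larger than its SE. Lyz2 (log2 fold change −1.87) and Cd14 (−2.06) were lower, and Cd68 (0.37) and Flt3 (1.57) higher. Lyz2 had 0 counts in knockout replicates 1 and 2. Of the untested ones, Itgam, Itgax and C1qc were counted only in wild-type libraries and Csf1r only in knockout ones. T cell markers (11 in the table) summed to 7453 to 9240 CPM in wild type and 5906 to 7323 CPM in knockout, without overlap. Their part in the values of the Th1 genes was not tested. B and plasma cell markers summed to at most 8.12 CPM in a wild-type and 39.6 CPM in a knockout library, and neutrophil markers to at most 34.4 and 44.6 CPM. Of synovial fibroblast markers other than Thy1, which T cells also express, Col1a2 and Pdgfra were at 0 in all libraries, Prg4 was at 0 to 25.4 CPM in wild type and 0 to 22.4 CPM in knockout, and Dcn was at 64.5 CPM in wild-type replicate 4 and at most 2.55 CPM in the others. Innate lymphoid and gamma-delta T cell markers (4 in the table, mostly Il7r, which helper T cells also express) summed to 231 to 458 CPM in wild type and 204 to 983 CPM in knockout.

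Housekeeping genes, read as a sign of RNA quality, had 6 lower and 2 higher estimates of 8, and none passed the edgeR test. Gapdh, a glycolytic enzyme, was at 86.8 to 135 CPM in wild type and 36.5 to 84.9 CPM in knockout, and Rplp0, a ribosomal protein, at 1144 to 1390 and 602 to 1076 CPM, so for both the genotypes did not overlap, as for Ifng. In knockout replicate 4 Hprt had 1 count and Tbp 0, and Actb was at 29830.5 to 74973 CPM in wild type and 35633 to 166957 CPM in knockout. The part of these differences in the values of the Th1 genes was not tested.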

How the data were processed

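The authors deposited unnormalised read counts by gene symbol for 4 wild-type and 4 Slc7a5 knockout libraries. Per the labels' protocols, RNA went through an RNeasy micro kit with DNase treatment and a NEBNext low-input kit; amplifying little RNA can lose scarce transcripts. HISAT2 2.1.0, featureCounts, edgeR 3.28.1 and mm10 are named, per the submitters' processing notes; annotation, strand setting and handling of duplicates are not given in the sources used here.

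From these counts, in R 4.3.3, genes were filtered with filterByExpr of edgeR 4.0.16 (minimum count 10, minimum total 15), scaled by TMM and compared by its quasi-likelihood test with robust dispersion, a genotype term alone and Benjamini-Hochberg correction across 8489 genes (threshold 0.05). Each SE was taken as the size of the log2 estimate divided by the root of its F statistic. CPM values are mean ± SD on the effective library size. Depths of 18837650 to 36436923 counts put the floor of 3 counts at 0.0834 to 0.167 CPM. Exon lengths and GC content came from GENCODE release M21 (GRCm38). Alternatives were 2 other filters, 3 other scalings, DESeq2 1.42.0, limma 3.58.1 with voom, the replicate number as a block, and libraries left out; an offset for GC content and the removal of the 3 libraries with under 8000 genes were added after seeing the data. The scripts were tested on simulated data. The 9 genes and all lists were chosen with earlier results of these data known. Named besides the 9 genes are Slc7a5, Cd4, Cd3e, the 2 members of each pathway list with the highest mean CPM (1 of them is not reported here), and the 3 genes most correlated with Ifng, Tbx21 and Runx3; others were named after their values were seen.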

Additional observations from a re-analysis of the deposited data

Results flagged for a closer look

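Of 57 groups of 4 libraries examined, 3 had a library whose gap to its nearest neighbour took up more of the group's range than Dixon's 95% critical value for 4 values allows, which chance passes in about 1 group in 20. Wild-type replicate 4 had 7957 genes detected against 9815 to 10139 in the other wild-type libraries. Tbx21 was at 27.0 CPM in knockout replicate 1 against 0 to 0.111 CPM in the other knockout libraries. Il17f was at 2975 CPM in wild-type replicate 4 against 502 to 868 CPM in the other wild-type libraries.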

How the results depend on the processing

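The count of genes called was 0 with the edgeR test under every filter, scaling, block and library removal tried, 387 in DESeq2 and 4 in limma voom. None of the 152 values of the 8 Th1 genes under 19 alternatives passed the threshold, and 8 of them turned in sign, all of Il18r1 or Runx3. With the library of fewest genes in each genotype left out (wild-type replicate 4 and knockout replicate 4) Il18r1 was at 0.074, and with the 3 libraries under 8000 genes left out it was at 0.50 and Runx3 at 0.17. With 1 library left out, Il18r1 ran from −0.55 to 0.23 and Runx3 from −1.07 to 0.0050. The number of the 8 with lower estimates ran from 6 to 8. The number of the 9 without overlap ran from 1 to 3 with 1 library left out, and was 3 in both removals of several libraries. The share of all tested genes without overlap was not computed for any of these removals. With the replicate block the log2 fold change was −9.82 for Tbx21, −6.99 for Ifng and −5.61 for Il12rb2, and no gene was called. Same-numbered libraries did not deviate together (correlations from −0.02 to 0.05). This does not settle whether the numbers pair them, since a pairing of small effect could give such correlations. In limma voom, which works on logged counts, Tbx21, Ifng and Il12rb2 were at −7.99, −7.21 and −5.26. The median of all genes was −0.68 with the block and −1.28 in limma voom, with 68.9% and 71.8% of genes lower, against 55% without them. The GC offset moved the median of all genes from −0.12 to 0.0083, Runx3 from −0.39 to −0.027 and Stat4 from −0.29 to −0.093. It moved Tbx21 from −3.31 to −2.95 and Ifng from −2.70 to −2.97. Among the named list genes it moved Ltb to −0.023, Stat3 to −0.016 and Gadd45b to −0.60. Signs among the 16 named list genes turned in 13 of 304 values: Jak1 with total counts only (−0.061), in limma voom (−0.027) and with the replicate block (−0.030), Il21 in limma voom (−1.99) and with the block (−0.41), Psmb8 with the GC offset (0.17), and Il1r2 with wild-type replicate 4 and knockout replicate 4 (0.067) or the 3 libraries (0.29) left out. With 1 library left out, Jak1 ran from −0.15 to 0.23, Il21 from −0.54 to 0.76 and Il17f from −0.20 to 1.22. The cause of these turns was not tested. Depth put the floor of 3 counts at 0.0834 to 0.167 CPM, which covers counting error only. Transcripts were also counted below it, as Tbx21 was in knockout replicate 2 (2 counts, 0.111 CPM). A count of 0 can also come from loss of a transcript before sequencing, which the floor does not cover.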
